A study of Mus musculus with 9 samples.

Results

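The transition zone is the stretch at the base of a cilium where Y-shaped links join the microtubule doublets to the membrane. It works as a gate that decides which proteins enter and stay in the cilium, and it is built from a B9 complex, tectonic proteins, meckelin and large scaffold proteins. Lens epithelial and fiber cells carry a primary cilium, and defects of these proteins cause Meckel and Joubert syndromes, in which Hedgehog signaling through the cilium is often disturbed. The 10 genes described here are *Cc2d2a*, *B9d1*, *B9d2*, *Mks1*, *Tctn1*, *Tctn2*, *Tctn3*, *Tmem67*, *Cep290* and *Rpgrip1l*, matched by symbol among 22013 entries of the table, of which 15820 carry a symbol. The set was selected on the fall of *Cc2d2a* in double KO lenses, so its values in the comparisons with double KO lenses are given as a description with no test. The other 9 genes belong to the set by their known function.

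RNA was sequenced from mouse lenses at E16.5 in 9 libraries, each made from 8 pooled lenses. There were 3 control libraries (*Mafg*+/-:*Mafk*+/-), 3 compound KO libraries (*Mafg*-/-:*Mafk*+/-) and 3 double KO libraries (*Mafg*-/-:*Mafk*-/-), all on the ICR background and all from embryos with germline alleles, so every cell of the embryo carries the genotype. The controls carry 1 null allele of each gene too, and a wild-type lens is not among these groups. *Mafg* and *Mafk* encode small Maf proteins, which lack a transactivation domain and bind DNA as dimers with one another or with CNC factors. Values are normalized CPM to 1 decimal, taken here as read counts divided by library size, then scaled with 1 factor for composition per library. Library totals were 1036870 to 1131184 in control, 728036 to 1022858 in compound KO and 977149 to 1081318 in double KO lenses. Entries without a symbol held 31.5% to 32.37% of the total in control libraries. They held 24.97% to 31.97% in compound KO and 29.21% to 35.51% in double KO libraries, highest in double KO replicate 3.

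The targeted genes followed the labels. *Mafg* had a mean of 123 ± 10.9 (SD, n = 3) in control, 18.4 ± 7.35 in compound KO and 24.0 ± 2.55 in double KO lenses, and *Mafk* had 5.70 ± 0.557, 4.80 ± 0.500 and 0.300 ± 0.300 in the same order. The lens markers *Cryba1*, *Crybb1* and *Mip*, which encode fiber cell crystallins and a membrane channel, had the highest mean normalized CPM of 13 listed lens markers found. The library of compound KO replicate 1 stood apart. The summed lens markers were 39873.4 there against 78604.2 to 128558.3 in the other 8 libraries, and *Col1a1*, a collagen gene of mesenchyme, was at 1173.6 against 4.0 to 59.6. Below, the differences of *Cc2d2a* and *Tmem67* between compound KO and control lenses are given with and without that library. The same holds for the listed ciliary genes called in a comparison with compound KO lenses, where they still passed the filter on low values. *B9d1*, *Tctn3* and *Dync2h1*, which were also lowest in that library, are given with it only.

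Promoters are shown first for *Cc2d2a*, the member with the largest difference, because small Maf proteins act through DNA elements. The 250 bases before its annotated start lie at chr5:43662129-43662378 on the plus strand of GRCm38.p6, an older build than the mm39 build of the expression table, and come from RefSeq. The capitals mark the 2 matches to TGCTGAN, an arm of the Maf recognition element, on either strand.
Cc2d2a: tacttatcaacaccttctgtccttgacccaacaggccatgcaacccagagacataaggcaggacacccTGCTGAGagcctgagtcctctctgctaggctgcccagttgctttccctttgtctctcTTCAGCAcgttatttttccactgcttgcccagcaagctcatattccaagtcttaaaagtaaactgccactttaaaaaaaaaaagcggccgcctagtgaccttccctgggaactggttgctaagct

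Both matches lie upstream, and the same arm occurred in 3 of 10 promoter windows of 9 members (*Cc2d2a*, *Tctn2* and *B9d2*) and in 19.4% of all 32851 windows of the same length. *B9d2* has 2 windows and *Tmem67* has no entry. TGACNNNGC, the core of the element bound by small Maf dimers with CNC factors, was in 0 of 10 windows and in 12.4% of all. GTTGCC, an arm of the X-box bound by RFX factors, which drive many ciliary genes, was in 6 of 10 windows and in 12.5% of all. All motifs were searched on both strands, and a match describes letters only. The windows around GTTGCC are shown because it was found in most members and not in *Cc2d2a*, with the motif or its reverse complement in capitals (in *Tctn1*, the first of 2 adjoining matches).
Tctn1 (chr5:122264411-122264440, minus strand): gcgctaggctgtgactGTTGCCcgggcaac
Tctn2 (chr5:124598750-124598779, plus strand): cattgattggtgGTTGCCatggctgcaggc
B9d2 (chr7:25680784-25680813, plus strand): gaggaacctgctGTTGCCccagcaacagtc
B9d1 (chr11:61505152-61505181, plus strand): cgagagcctcctGGCAACagcgcgcggcct
Mks1 (chr11:87853179-87853208, plus strand): gccagcgtctccGTTGCCaggggaacgagg
Tctn3 (chr19:40612354-40612383, minus strand): aggctcccagcgGTTGCCaggtaacgggaa

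In *Tctn1* the motif is followed by its reverse complement, giving the full palindrome with 2 bases between the arms. That form was searched after the window had been seen, and it was in 31 of the 32851 windows (0.094%) and in no other window of a member. *Cc2d2a*, *Cep290* and *Rpgrip1l* did not hold GTTGCC in these windows. Only these exact letters were searched, so a variant form of the arm would be missed.

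*Cc2d2a* encodes a C2 domain protein of the B9 complex and lies on GRCm39 at chr5:43819682-43898319 on the plus strand, with 40 exons in its canonical transcript. Its values were 16.6, 17.9 and 20.1 in control lenses, 4.5, 15.9 and 15.5 in compound KO lenses and 1.3, 2.7 and 0.5 in double KO lenses. All 3 double KO libraries lay below every other library, and the nearest value, 4.5, belonged to compound KO replicate 1. The means were 18.2 ± 1.77, 12.0 ± 6.47 and 1.5 ± 1.11 (SD, n = 3 each), and the difference of log2(value + 1) from control to double KO was −3.03, a fold of 0.122 on that scale. In bulk lenses, fewer cells that express a gene and less of its RNA per cell cannot be told apart. From control to double KO lenses, 2.83% of all genes were called at an unadjusted p with a 1.5-fold change. At the adjusted threshold that share was 0.361%. In the same libraries skeletal muscle markers were higher in double KO than in control lenses for 6 of 6 tested genes at an unadjusted p. *Myod1* was also called at the adjusted threshold, and erythroid markers were higher for 4 of 7 at an unadjusted p. The lens markers *Bfsp1*, *Cryab* and *Gja3* were lower at an unadjusted p, 3 of 13. The part of these in the fall of *Cc2d2a* was not tested. Summed muscle markers were 76.9, 24.7 and 24.9 in double KO replicates 1, 2 and 3, against 2.0 to 4.1 in control lenses. An entry without a symbol, picked because its values ran most opposite to those of *Cc2d2a*, was at 11.5, 11.8 and 31.1 in double KO lenses, so that its sum with *Cc2d2a* was 12.8, 14.5 and 31.6 there against 19.6, 20.5 and 21.7 in control lenses. Whether that entry holds reads of *Cc2d2a* was not tested.

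The neighbors of *Cc2d2a* were read to see whether the region moved with it. *Fbxl5*, which encodes a subunit of an iron-sensing ubiquitin ligase and ends 2.54 kb beyond *Cc2d2a*, had 41.1 ± 1.93 in control, 38.1 ± 4.19 in compound KO and 43.9 ± 2.23 in double KO lenses. Its difference from control to double KO was 0.09 on the log2 scale (adjusted p = 0.719, limma). The neighbor on the other side, *C1qtnf7*, lies 42.88 kb away and was not found by symbol. No annotated gene overlaps *Cc2d2a*.

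**Figure D1:**
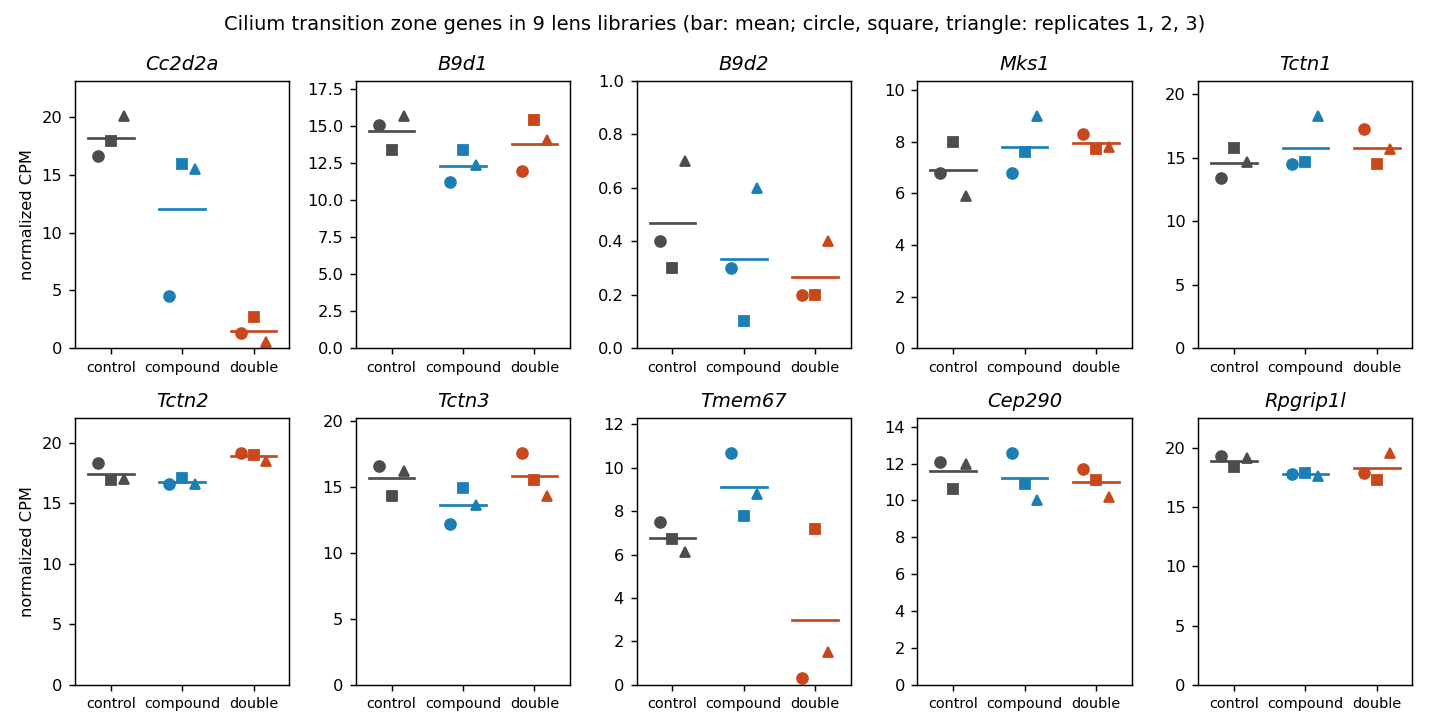
Normalized CPM of the 10 transition zone genes in each of the 9 libraries, with control, compound KO and double KO lenses side by side and 1 panel per gene. *Cc2d2a* was at 0.5 to 2.7 in double KO lenses against 16.6 to 20.1 in control lenses, and *Tmem67* was at 0.3, 7.2 and 1.5 in double KO lenses.

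Which members besides *Cc2d2a* differ between double KO and control lenses was asked by a fit over 14122 genes. The adjusted threshold (0.05, with a 1.5-fold change) called 51 genes (0.361%), and none of the 8 other members that passed the filter on low values was among them. The unadjusted threshold, with 0.05 applied before correction, called 400 genes (2.83%), again with none of those 8. *B9d2* did not pass the filter in any comparison and was not tested. The 3 libraries per group were separate pools of lenses, and the p-values measure the spread between such pools.

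*B9d1*, *B9d2* and *Mks1* encode the B9 domain proteins of the complex. *B9d1* had values of 15.1, 13.4 and 15.7 in control, 11.2, 13.4 and 12.4 in compound KO and 12.0, 15.4 and 14.1 in double KO lenses. *Mks1*, mutated in Meckel syndrome, had 6.8, 8.0 and 5.9, then 6.8, 7.6 and 9.0, then 8.3, 7.7 and 7.8. For *B9d1* and *Mks1* the double KO and control libraries overlapped. The log2 differences were −0.09 for *B9d1* (95% interval −0.379 to 0.202, adjusted p = 0.858) and 0.19 for *Mks1* (−0.124 to 0.495, adjusted p = 0.707, limma). *B9d2* was near the lower end of the table, at 0.3 to 0.7 in control, 0.1 to 0.6 in compound KO and 0.2 to 0.4 in double KO lenses, where a step of the rounding is a large part of the value.

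The tectonic genes encode related proteins, secreted or anchored in the membrane, that form a complex with the B9 proteins. *Tctn1* had values of 13.4, 15.8 and 14.7 in control, 14.5, 14.7 and 18.3 in compound KO and 17.3, 14.5 and 15.7 in double KO lenses. *Tctn2* had 18.3, 16.9 and 17.0, then 16.6, 17.1 and 16.6, then 19.2, 19.0 and 18.5. *Tctn3* had 16.6, 14.3 and 16.2, then 12.2, 14.9 and 13.6, then 17.6, 15.5 and 14.3. Among these, *Tctn2* alone had double KO values that lay all above the control values, by a gap of 18.3 to 18.5. Its difference was 0.11 on the log2 scale (95% interval −0.05 to 0.277, adjusted p = 0.656), and groups without overlap were found for 15.8% of all genes in this comparison. The differences of *Tctn1* and *Tctn3* from control to double KO were 0.11 (−0.143 to 0.356, adjusted p = 0.789) and 0.01 (−0.256 to 0.27, adjusted p = 0.993).

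*Tmem67* encodes meckelin, a transmembrane protein of the same complex with a receptor-like outer domain, and varied between double KO libraries. It lies at chr4:12039112-12090020 on the minus strand of GRCm39. Its values were 7.5, 6.7 and 6.1 in control, 10.7, 7.8 and 8.8 in compound KO and 0.3, 7.2 and 1.5 in double KO lenses. Double KO replicates 1 and 3 lay below every other library, while double KO replicate 2 lay within the control range. The mean in double KO lenses was 3.0 ± 3.69 against 6.77 ± 0.702 in control lenses (SD, n = 3 each). The log2 difference of −1.38 had a 95% interval of −3.017 to 0.268 and was not called (adjusted p = 0.581, limma), and without double KO replicate 2 it was −2.10 (adjusted p = 0.169). In the 2 double KO libraries with low *Tmem67*, the summed mesenchyme markers were 304.2 and 227.7 against 188.9 in the third. *Pdgfra*, which lens cells also express, gave 139.7 and 149.4 of the sums in those 2 libraries and 173.4 of the sum in the third. In compound KO replicate 1, where the sum was 1649.7, *Tmem67* was at 10.7. The part of these markers in the result was not tested. An entry without a symbol, picked as most opposite to *Tmem67*, was at 7.2, 0.2 and 2.6 in double KO lenses, and whether it holds reads of *Tmem67* was not tested.

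*Cep290*, which ties the doublets to the membrane in the Y-links, and *Rpgrip1l*, a scaffold that anchors other members, overlapped between control and double KO lenses. *Cep290* had values of 12.1, 10.6 and 12.0 in control, 12.6, 10.9 and 10 in compound KO and 11.7, 11.1 and 10.2 in double KO lenses. *Rpgrip1l* had 19.3, 18.4 and 19.1, then 17.8, 17.9 and 17.6, then 17.9, 17.3 and 19.6. Their differences from control to double KO were −0.07 (−0.302 to 0.169, adjusted p = 0.872) and −0.05 (−0.233 to 0.131, adjusted p = 0.873), and the second became 0.016 when values were scaled by library size only. The 95% intervals of the 7 tested members other than *Cc2d2a* and *Tmem67* all lay within 1.5-fold in either direction in this comparison.

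**Figure D2:**
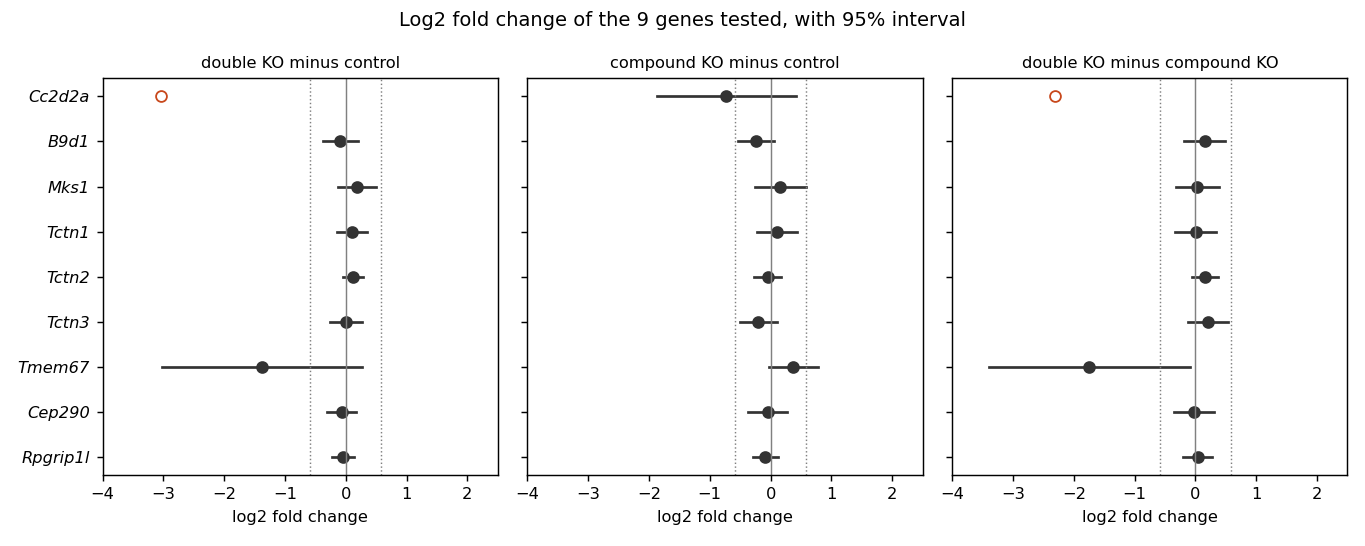
Difference of log2(value + 1) for the tested members in each of the 3 comparisons, with 95% intervals from limma and dotted lines at 1.5-fold. *Cc2d2a* is drawn as an open circle without an interval in the comparisons with double KO lenses, at −3.03 against control and −2.30 against compound KO, and the intervals of *Tmem67* are the widest of the others in those 2 comparisons.

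Compound KO lenses keep 1 allele of *Mafk*, and the selection of the set did not use them, although the control libraries are shared with the comparison above. Of 14348 genes tested against control, 0 (0.0%) were called at the adjusted threshold by limma and 766 (5.34%) at the unadjusted one, and no member was called by either. *Cc2d2a* was lower in all 3 compound KO libraries than in any control library. Its log2 difference was −0.73 (SE 0.461, 95% interval −1.873 to 0.41, adjusted p = 0.499). This rests mostly on 1 library, since without compound KO replicate 1 it was −0.197 (adjusted p = 0.523), the values then being 15.9 and 15.5 against 16.6 to 20.1.

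In the same comparison, *Tmem67* was higher in all 3 compound KO libraries than in any control library, by 0.37 on the log2 scale (SE 0.162, 95% interval −0.027 to 0.773, adjusted p = 0.481), and by 0.26 without compound KO replicate 1. *Rpgrip1l* was lower without overlap by a small margin, 17.6 to 17.9 against 18.4 to 19.3, with a log2 difference of −0.09 (adjusted p = 0.619) that became 0.158 when scaled by library size only. These 3 members are to be set beside the 23.9% of all genes whose groups did not overlap in this comparison. *B9d1* and *Tctn3* had differences of −0.24 (−0.541 to 0.062, adjusted p = 0.481) and −0.20 (−0.502 to 0.105, adjusted p = 0.496), which became 0.000 and 0.042 under that scaling. *Mks1* and *Tctn1* differed by 0.16 and 0.10, and *Tctn2* and *Cep290* by −0.05 each, which became 0.194 and 0.189, with adjusted p from 0.653 to 0.866 among these 4 genes (limma).

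Between double KO and compound KO lenses, which differ in the last allele of *Mafk*, 2 of 14402 genes (0.0139%) were called at the adjusted threshold and 440 (3.06%) at the unadjusted one. *Cc2d2a* differed by −2.30 on the log2 scale, described here with no test because the double KO libraries chose it. *Tmem67* differed by −1.75 (SE 0.668, 95% interval −3.40 to −0.095) with an unadjusted p = 0.0415 and an adjusted p = 0.665 in limma, so it passed the unadjusted rule and failed the correction. The unadjusted call was lost in 5 of the 6 fits that left out 1 library, with the difference between −2.48 and −1.15. It was lower in all 3 double KO libraries than in any compound KO library, with 7.2 against 7.8 as the nearest pair. *Tctn2* was higher without overlap, by 0.16 (adjusted p = 0.665), which became −0.014 when scaled by library size only. Groups without overlap were found for 15.6% of all genes. The other 6 tested members differed by −0.02 (*Cep290*) to 0.21 (*Tctn3*), with adjusted p of 0.665 to 0.993, and 4 of these differences changed sign under that scaling (*B9d1*, *Mks1*, *Tctn1* and *Rpgrip1l*).

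Leaving *Cc2d2a* aside, the median log2 difference of the 8 tested members was −0.022 from control to double KO, −0.05 from control to compound KO and 0.032 from compound KO to double KO, beside 0.011, 0.016 and −0.005 over all genes tested. The comparisons share libraries pairwise, so these are not independent.

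Levels in control lenses were compared per kb of the canonical transcript, since long genes collect more reads, although which transcript an entry counts is not known. *B9d1* was highest at 17.1 ± 1.38 normalized CPM per kb (SD, n = 3), followed by *Tctn2* at 6.36 ± 0.285 and *Tctn3* at 5.06 ± 0.396. *Cc2d2a* came next at 3.31 ± 0.322, and its range of 3.02 to 3.66 overlapped that of *Mks1*, 2.35 to 3.18. *Mks1*, *Rpgrip1l* and *Tctn1*, at 2.74 ± 0.419, 2.65 ± 0.0662 and 2.56 ± 0.210, did not differ beyond their spread. *Tmem67* at 1.94 ± 0.201, *Cep290* at 1.22 ± 0.0885 and *B9d2* at 0.406 ± 0.181 lay below without overlap between neighbors. In control lenses *Cc2d2a* was therefore neither the most nor the least abundant member on this scale.

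**Figure D3:**
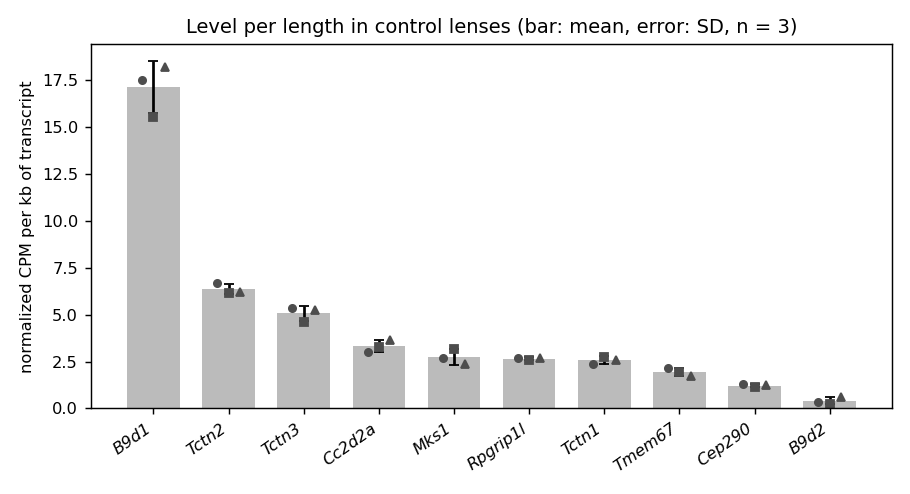
Normalized CPM per kb of canonical transcript for the 10 members in control lenses, with bars for the mean, error bars for the SD and points for the 3 libraries. The order runs from *B9d1* at 17.1 to *B9d2* at 0.406, with *Cc2d2a* at 3.31.

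Across the 9 libraries the members did not move as a block. The highest Pearson correlation of log2(value + 1) between a pair was 0.764 (*Mks1* and *Tctn1*) and the lowest −0.737 (*Mks1* and *Cep290*), with 0.696 for *Cc2d2a* and *Tmem67*. These are descriptions over 9 libraries that share genotype and preparation. Among 14568 genes, those most like *Cc2d2a* were *E130308A19Rik* and *Tpgs1* at 0.958 each and *Ptpn13* at 0.92. *Tpgs1*, a subunit of a tubulin polyglutamylase, had 17.9, 19.7 and 17.7 in control, 14.1, 20.4 and 17.5 in compound KO and 12.0, 14.4 and 10 in double KO lenses. Its double KO values were all below its control values but far less so than those of *Cc2d2a*. *Ptpn13*, a protein tyrosine phosphatase, had 28.5, 25.5 and 31.6, then 24.4, 29.2 and 30.3, then 19.4, 24.9 and 18.6.

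The genes most like *Tmem67* were looked up after its values had been seen. They were *Rprd1b* at 0.953, *Ankrd45* at 0.946 and *Ccdc61* at 0.929. *Ankrd45* had 5.3, 5.0 and 5.7 in control, 7.6, 2.9 and 5.7 in compound KO and 0.2, 6.7 and 0.7 in double KO lenses, so the same 2 double KO libraries were low. *Rprd1b*, which binds the tail of RNA polymerase II, had 10.1, 27.8 and 9.5 in double KO lenses against 25.6 to 29.2 in control lenses.

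The rest of the ciliary machinery was read from 7 lists of 101 genes, of which 98 were found and 94 passed the filter in double KO against control lenses. None of the 94 was called at the adjusted threshold by limma, and 1 (1.06%, beside 2.83% of all genes) was lower at the unadjusted one. That gene was *Arl13b*, which encodes a small GTPase of the ciliary membrane and is itself a Joubert syndrome gene. Its values were 6.3, 5.6 and 4.8 in control, 4.8, 6.6 and 6.2 in compound KO and 2.7, 3.4 and 0.9 in double KO lenses. All double KO values lay below the others, with a log2 difference from control of −1.06 (SE 0.333, unadjusted p = 0.0205, adjusted p = 0.383). Groups without overlap were found for 8 genes higher and 7 lower (16.0%, beside 15.8% of all genes), and the median log2 difference of the 94 genes was 0.012.

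The 17 other transition zone genes, among them *Ahi1*, a Joubert syndrome gene, had none called in double KO against control lenses, with 16 tested and a median of 0.034. In mean normalized CPM over the 9 libraries, which is not per length, the highest of the 13 basal body genes were *Odf2* and *Ccp110*, which act at centriole appendages and in capping centrioles, and the list had none called and a median of 0.03. None of the 28 intraflagellar transport genes was called. Beside 15.8% of all genes without overlap, this list had 2 genes higher and 5 lower. *Dync2h1*, the heavy chain of the retrograde motor, was one of these at 151.8, 155.8 and 162.1 in control, 81.8, 115.3 and 127.6 in compound KO and 114.1, 127.5 and 133.4 in double KO lenses, a log2 difference of −0.33 (SE 0.070, adjusted p = 0.231). It had the highest mean normalized CPM of the list, with *Kif3a*, a kinesin-2 motor subunit, next. The 9 BBSome genes, of which *Bbip1* and *Bbs1* were highest on that scale, had a median of −0.005, and the 14 ciliary membrane and Joubert genes, among them *Arl3*, one of 0.001. In that last list *Cep120*, which acts in centriole elongation and is named here after its values were seen, had the largest difference of any ciliary list gene in this comparison, 2.77 on the log2 scale (SE 1.336, adjusted p = 0.581, limma). It was listed at 0.0, 43.7 and 3.9 in control, 0.0, 40.2 and 0.0 in compound KO and 40.6, 39.7 and 39.8 in double KO lenses, so 1 control and 1 compound KO library were as high as the double KO libraries.

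Against control, compound KO lenses had 0 of 98 genes called at the adjusted threshold by limma and 3 higher at the unadjusted one (3.06%, beside 5.34% of all genes). *Cluap1*, an intraflagellar transport gene, had 5.7, 9.5 and 8.6 in control and 11.9, 12.9 and 12.4 in compound KO lenses, a log2 difference of 0.61. *Kif24*, a kinesin that acts with *Ccp110*, had 3.3, 2.9 and 3.5 against 9.0, 5.4 and 4.1, a difference of 0.70. *Rpgrip1*, a paralog of *Rpgrip1l* best known from the photoreceptor cilium, had 0.4, 0.0 and 0.4 against 5.2, 2.7 and 0.6, a difference of 1.41. The highest values of *Kif24* and *Rpgrip1* were those of compound KO replicate 1, in which summed neural retina markers were 1411.0 against 44.0 to 355.4 in the other libraries. The part of these markers in the result was not tested. Without that library the difference of *Kif24* was 0.43 and under 1.5-fold, that of *Cluap1* was 0.64 (unadjusted p = 0.0399, adjusted p = 0.409, limma), and *Rpgrip1* no longer passed the filter on low values. Between double KO and compound KO lenses, *Arl13b* (−1.12), *Gli2* (−3.15) and *Rpgrip1* (−1.32) were lower at the unadjusted threshold, which is 3.06% of the 98 genes, the share found over all genes. *Gli2* and *Rpgrip1* were highest in compound KO replicate 1, at 35.6 and 5.2, and did not pass the filter without it. *Gli2* was also at 30.3 in compound KO replicate 3, but a single library at 1 or more does not meet the filter. Without compound KO replicate 1, *Arl13b* differed by −1.24 (adjusted p = 0.83, limma).

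Hedgehog genes were read because the primary cilium carries this pathway. *Smo*, the transducer, and *Sufu*, an inhibitor of the Gli factors, had the highest mean normalized CPM of the 11 genes, at 112 and 40.4 over the 9 libraries. *Gli2*, a Gli transcription factor, was at 0.9, 0.5 and 0.7 in control, 35.6, 0.5 and 30.3 in compound KO and 0.7, 0.2 and 0.2 in double KO lenses. *Ptch1*, the receptor and itself a target of the pathway, was at 26.0, 8.0 and 59.8, then 28.8, 19.9 and 33.5, then 7.5, 31.4 and 7.0. *Gli3* was at 2.9, 0.1 and 25.5 in control, 1.7, 26.0 and 30.4 in compound KO and 29.6, 1.6 and 2.6 in double KO lenses, with libraries of each genotype both high and low. *Gli1*, another target, was at 0.2 or less in control, at 6.1, 3.1 and 0 in compound KO and at 0, 0.9 and 5.2 in double KO lenses. In double KO against control lenses 8 of the 11 passed the filter on low values, and none of these 8 was called. Among the ciliary transcription factors, *Rfx7* and *Rfx1* had the highest mean normalized CPM, and 0 of 6 were called.

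**Figure D4:**
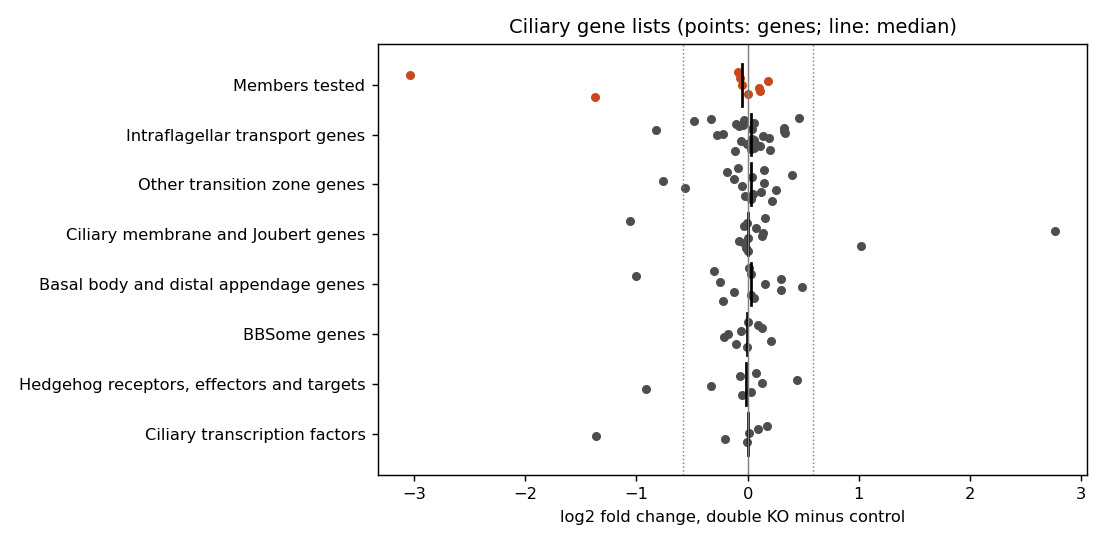
Differences of log2(value + 1) from control to double KO lenses for each tested gene of the ciliary lists and the members, 1 point per gene, with a line at each median and dotted lines at 1.5-fold. Most points lie near 0, with *Cc2d2a* at −3.03 and *Arl13b* at −1.06 among the lower ones and *Cep120* at 2.77 as the highest.

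Cells other than lens cells were followed through marker lists in the same libraries. In the lists that follow, the gene named has the highest mean over the 9 libraries, mesenchyme excepted. There *Col1a1* had the highest mean, 149, and *Pdgfra*, the gene named, had 143. For *Tubb3*, *Myh3*, *Kdr*, *Csf1r* and *Col1a1* the mean is raised by compound KO replicate 1. Motile cilium genes, with *Dnah9*, a dynein heavy chain, summed to 22.2 to 26.1 in control, 25.0 to 27.7 in compound KO and 20.1 to 29.1 in double KO lenses. Mesenchyme markers summed to 169.8 to 194.6 in control, 174.4 to 1649.7 in compound KO and 188.9 to 304.2 in double KO lenses, and in control lenses *Pdgfra*, a receptor that lens cells also express, gave 156.3 to 172.2 of this. Neural retina markers, with *Tubb3*, summed to 44.0 to 130.8, then 151.6 to 1411.0, then 54.1 to 212.8. Skeletal muscle markers, with *Myh3*, an embryonic myosin, summed to 2.0 to 4.1, then 18.8 to 327.6, then 24.7 to 76.9, so both knockouts lay above control without overlap. Erythroid markers, with the globin gene *Hbb-bs*, summed to 1169.7 to 1639.3, then 1425.1 to 2832.1, then 2335.0 to 3866.6.

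Endothelial markers, with *Kdr*, summed to 49.3 to 60.4 in control, 56.8 to 128.0 in compound KO and 51.2 to 56.4 in double KO lenses, and macrophage markers, with *Csf1r*, to 10.2 to 13.7, then 17.9 to 32.3, then 6.2 to 13.5. At the unadjusted threshold in double KO against control lenses, which called 2.83% of all genes, 1 of 8 tested mesenchyme markers was higher (*Prrx1*). There 1 of 5 macrophage markers (*Csf1r*) and 1 of 6 motile cilium genes (*Hydin*) were lower, and none of 13 retina and 7 endothelial markers was called. No listed marker that was found was at 0 in all 9 libraries.

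**Figure D5:**
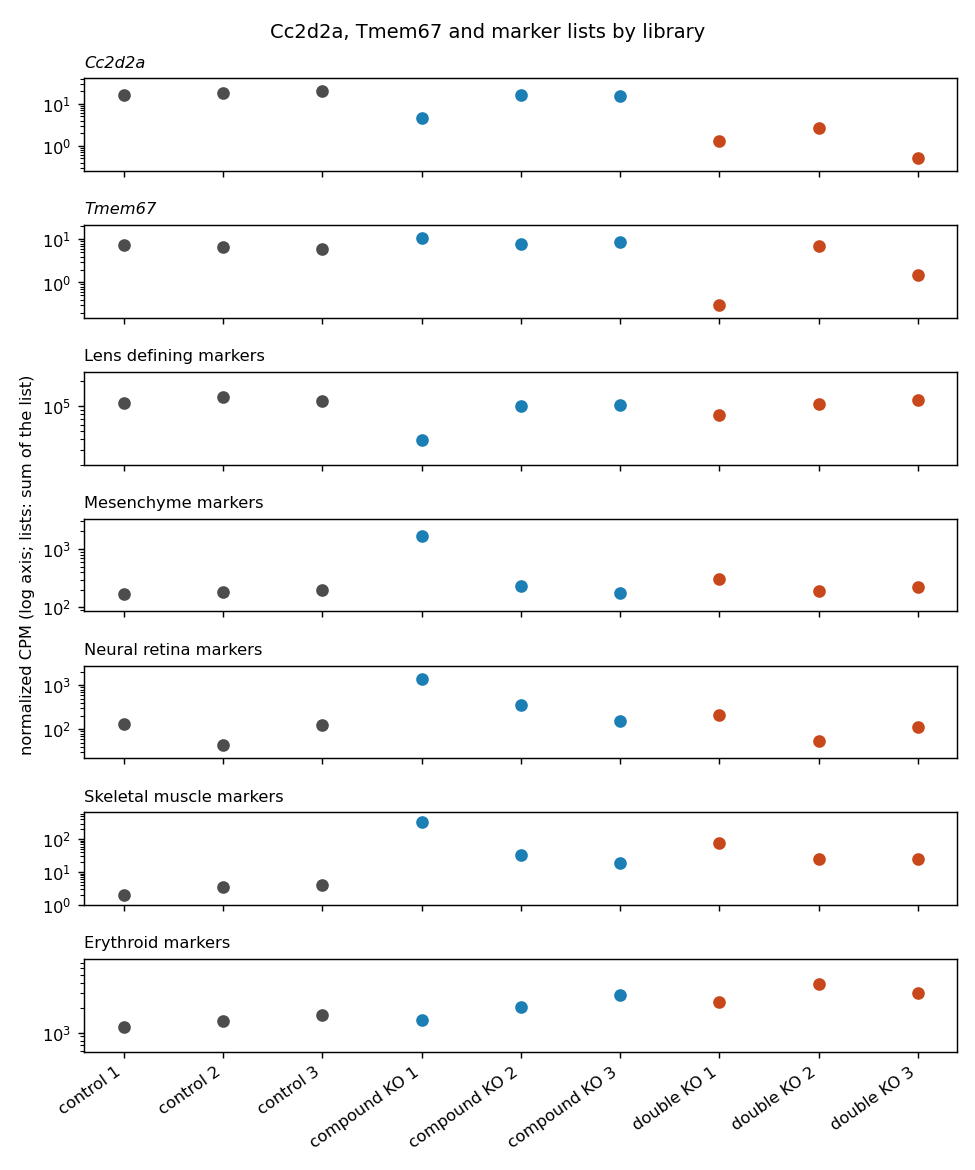
Normalized CPM of *Cc2d2a* and *Tmem67* and summed normalized CPM of lens, mesenchyme, neural retina, skeletal muscle and erythroid markers in the 9 libraries, on log axes. Compound KO replicate 1 has the lowest lens sum at 39873.4 and the highest mesenchyme, retina and muscle sums, at 1649.7, 1411.0 and 327.6.

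6 of the 10 members overlap another annotated gene on GRCm39, and the strand setting of the counting is not given in the sources used here, so reads of overlapping genes may enter these values. The affected members are *B9d1*, *B9d2*, *Tctn1*, *Tmem67*, *Cep290* and *Rpgrip1l*.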

How the data were processed

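Total RNA without the small RNA fraction was sequenced from mouse E16.5 lenses as strand-specific paired-end reads, 8 lenses per library. Per the labels and the study's methods, the authors trimmed reads with Trimmomatic, aligned them to mm39 with HISAT2, assembled and counted transcripts with StringTie and imported the counts into edgeR. Cufflinks is also named in the processing notes, and versions are not given in the sources used here. The authors deposited a normalized signal, taken here as CPM multiplied by 1 factor for composition in each library, to 1 decimal: library totals differ but have a geometric mean of 1000012. Every step of 0.1 up to 5 occurred in each library (50 of 50), so whole reads could not be recovered, the depth is unknown and precision is given by the spread between libraries.

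Groups are the labelled genotypes. Each pair of groups was fitted with limma 3.58.1 in R 4.3.3 with an intensity trend on log2(value + 1), over genes that reached 1 in 2 or more of the 6 libraries. All p-values are two-sided, and the Benjamini-Hochberg adjustment ran over all genes tested. The count model that the plan held for raw counts was not used, since values are normalized. The script was tested on simulated data. A fold change on this scale understates that of low genes.

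Members and lists were chosen with earlier results of these data known. Named genes are the 10 members, the 2 most abundant genes of each ciliary list and those called, the leading markers, the 3 genes most like *Cc2d2a* and its neighbors, and *Mafg* and *Mafk*. Further Hedgehog genes, *Dync2h1* per library, *Cep120*, *Pdgfra* and the genes most like *Tmem67* were added after their values were seen, and some genes that the rule names are not reported here. *Rfx4*, *Mcidas*, *Gmnc*, *Dnah5*, *Dnai1*, *Rsph4a*, *Cfap43*, *Aif1* and *Cryaa* were not found by symbol, and *Togaram1* was matched as *Fam179b*. Positions and lengths come from GENCODE on GRCm39 and promoters (250 bases before to 50 after a start) from RefSeq on GRCm38.p6. Alternatives were another pseudocount, filter, scaling and fit, a replicate block and leaving out each library.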

Additional observations from a re-analysis of the deposited data

Results flagged for a closer look

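Entries without a symbol were not part of the comparisons, and 5311 of them were searched for the one whose values ran most opposite to *Cc2d2a* and to *Tmem67*. The one most opposite to *Cc2d2a* (Pearson r = −0.945 over 9 libraries) had 3.0, 2.6 and 1.6 in control, 4.2, 1.0 and 2.3 in compound KO and 11.5, 11.8 and 31.1 in double KO lenses. Its highest double KO value, 31.1, lay above the highest control value of 3.0. Its sum with *Cc2d2a* was 19.6, 20.5 and 21.7 in control lenses. That sum was 8.7, 16.9 and 17.8 in compound KO and 12.8, 14.5 and 31.6 in double KO lenses. The double KO sums of 12.8 and 14.5 lay below every control library, and 31.6 lay above every control library. An entry picked as most opposite offsets the fall through the pick itself, so the sum is a description only. The one most opposite to *Tmem67* (r = −0.955) had 0.3, 0.0 and 0.0, then 0.0, 0.1 and 0.5, then 7.2, 0.2 and 2.6, and its 7.2 in double KO replicate 1 lay above the highest control value of 0.3. Its sum with *Tmem67* was 7.8, 6.7 and 6.1 in control, 10.7, 7.9 and 9.3 in compound KO and 7.5, 7.4 and 4.1 in double KO lenses. Both entries were picked from their values among many, and whether they hold reads of these genes was not tested.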

How the results depend on the processing

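Depth is unknown and each group has 3 libraries, so changes under 1.5-fold of a low gene such as *B9d2* cannot be resolved. For double KO against control lenses, the 51 genes at the adjusted threshold became 21 in a fit of all 9 libraries and 10 with a replicate block, and 22 to 47 without 1 library each. The unadjusted count ran from 412 to 465 without 1 library each. Of members other than *Cc2d2a*, 0 were called at the unadjusted threshold, which became 1 (*Tmem67*) with all 9 libraries and 0 to 1 without 1 library each. For compound KO against control lenses, 0 genes at the adjusted threshold became 2 with all 9 libraries and 0 to 13 without 1 library each, and the unadjusted 766 became 382 to 1620. The 13 came without compound KO replicate 1. Between double KO and compound KO lenses, the 2 genes at the adjusted threshold became 0 when 1 had to be reached in every library, 5 with all 9 libraries, 0 with the replicate block, 1 with a pseudocount of 0.1 and 1 to 6 without 1 library each. The unadjusted 440 became 744 with the replicate block and 253 to 1142 without 1 library each. The 1 member other than *Cc2d2a* called there, *Tmem67*, became 0 when 1 had to be reached in every library, which removes it from the fit, 0 with the replicate block, 0 with a pseudocount of 0.1 and 0 to 1 without 1 library each. Beyond the filter's own construction, the cause was not tested.

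Libraries with the same replicate number correlated by −0.106 to 0.216 after removal of group means, so the numbers were not taken as pairs.

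Scaling by library size only moved the median log2 difference of all genes to 0.073 (double KO against control), 0.244 (compound KO against control) and −0.172 (double KO against compound KO), and the higher and lower calls at the unadjusted threshold from 225 and 175 to 281 and 137, from 547 and 219 to 748 and 91, and from 123 and 317 to 67 and 332. It reversed *Rpgrip1l* (0.016) in the first comparison, *B9d1* (0.000), *Tctn2* (0.194), *Tctn3* (0.042), *Cep290* (0.189) and *Rpgrip1l* (0.158) in the second, and *B9d1* (−0.024), *Mks1* (−0.137), *Tctn1* (−0.172), *Tctn2* (−0.014) and *Rpgrip1l* (−0.142) in the third.

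Without 1 library each, signs also changed for *B9d1* (−0.164 to 0.003) and *Tctn3* (−0.069 to 0.072) in the first, *Tctn1* (−0.0 to 0.158) and *Cep290* (−0.133 to 0.02) in the second, and *Mks1* (−0.055 to 0.125), *Tctn1* (−0.058 to 0.106), *Cep290* (−0.086 to 0.067) and *Rpgrip1l* (−0.013 to 0.072) in the third. *Cc2d2a* stayed lower in compound KO than in control lenses, at −1.01 to −0.197. In double KO lenses *Cc2d2a* ran from −3.37 to −2.71 against control and from −2.84 to −1.98 against compound KO. These double KO ranges are a description only, since the gene was selected on its fall in those lenses. *Tmem67* ran from −2.10 to −0.78 in the first comparison and from −2.48 to −1.15 in the third.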
